A study of Sinohyriopsis cumingii with 2 samples.

Results

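The microRNA (miRNA) families miR-1, miR-22, miR-29, miR-92, miR-99, miR-182 and miR-183 were followed in small RNA libraries of mantle exosomes from the freshwater pearl mussel Sinohyriopsis (Hyriopsis) cumingii. Members were chosen by the family number in the catalogue name, whatever the species prefix, and entries with the same mature sequence were joined. This gave 11 distinct sequences, from 172 of the 1404 deposited catalogue entries and out of 170 distinct sequences in all. Exosomes are small vesicles that cells release, and the mantle builds the mussel's shell and nacre. Purple mussels were set against white mussels, all of them healthy and about 2 years old with an average shell length of 9 cm. Each type had 1 library, and no source used here gives the number of animals behind it. No difference therefore has a replicate check, no p-value is given, and intervals (95%, exact) take in counting error alone. The tags were counted without molecular identifiers and several reads can come from 1 molecule, so these intervals may be too narrow.

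A miRNA is a short RNA that guides an Argonaute protein to messenger RNAs, mainly through pairing of its bases 2 to 8, the seed. The families followed here are counted among the old miRNA families of animals. miR-1 is a muscle miRNA in flies and vertebrates. In vertebrates miR-182 and miR-183 are made from 1 cluster together with miR-96 and are known from sensory cells of the ear and eye. miR-92 belongs with miR-25 to a seed group, part of which lies in the vertebrate miR-17 to miR-92 cluster, known for its role in cell proliferation. miR-99 is a close relative of miR-100, which lies near let-7 in many animals. In mammals miR-22 is known from heart muscle growth and miR-29 from the repression of collagens and other matrix proteins.

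The sequences are shown because the entry names alone do not tell which form of a miRNA was read, and because several members differ only at their 3′ end. All are the mature sequences of the deposited table, written 5′ to 3′ with the seed in capitals. The miR-1 sequences, with the seed GGAAUGU, are not printed here.
aca-miR-182-5p: uUUGGCAAugguagaacucaca
hsa-miR-182-5p: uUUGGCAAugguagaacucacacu
hsa-miR-183-5p: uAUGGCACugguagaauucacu
hsa-miR-92a-3p: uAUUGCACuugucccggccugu
sko-miR-92b: uAUUGCACuugucccggccugc
ipu-miR-99b: aACCCGUAgauccgaucuuguga
hsa-miR-99b-5p: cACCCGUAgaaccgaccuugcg
hsa-miR-22-3p: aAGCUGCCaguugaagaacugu
cgr-miR-29a-3p: uAGCACCAucugaaaucgguu

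The 11 members carried 7 different seeds, 1 per family. Counting positions from 1 at the 5′ end, hsa-miR-92a-3p and sko-miR-92b differed by U22C alone, and the miR-1 forms hsa-miR-1-3p and oha-miR-1a-3p likewise differed by U22C alone. The 24-nt hsa-miR-182-5p held the whole 22-nt aca-miR-182-5p and 2 further bases at its 3′ end. From hsa-miR-99b-5p to ipu-miR-99b the substitutions were C1A, A11U, C16U and C21U, with 1 further base at the 3′ end. Between aca-miR-182-5p and hsa-miR-183-5p, the cluster neighbours, 18 of 22 positions were the same, and 2 of the 4 substitutions (U2A and A8C) fell in the seed. Of the 11 members 8 were 22 nt long (72.7%), against 68 of the 159 other sequences (42.8%). A first U, the commonest first base of miRNAs, was found in 8 of the 11 members (72.7%) and in 101 of the 159 others (63.5%).

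Most of the exact member sequences were catalogued for vertebrates only. The prefixes of exact sequences cannot tell whether a family is shared across animals, since members of 1 family can differ in sequence. Among the members, hsa-miR-1-3p alone was also catalogued for a protostome, the branch that includes molluscs. Its 42 entries came from 28 species, of which 22 were vertebrates, 5 were invertebrate deuterostomes such as sea urchins, and 1 was the owl limpet, a mollusc. The 2 entries of sko-miR-92b came from an acorn worm and a sea urchin and none from a vertebrate, and hsa-miR-183-5p had 1 amphioxus among its 12 species. The other 8 members carried vertebrate prefixes only, among them hsa-miR-92a-3p with 57 entries from 29 vertebrate species. Over the whole table, 3 of the 170 sequences had a protostome entry. None of 21 families taken as markers of protostome animals, such as bantam, miR-2 and miR-1992, was listed in either library. That list also holds miR-71, which was counted among families known across bilaterian animals as well and is no marker of protostomes alone.

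Depth was low. The purple library held 3141 tags and the white library 1820 tags when each of the 170 sequences was counted once, so that 1 tag was 0.0318% of the listed tags in purple and 0.0549% in white. The deposited table leaves a cell empty under 2 tags, which is 0.0637% of the purple and 0.110% of the white tags, and an empty cell is therefore not a 0. Whether each entry carried the full tags of its sequence or a part of them is not stated. Entries per member ranged from 1 for ipu-miR-99b to 57 for hsa-miR-92a-3p, so levels of different members would shift against each other if entries held parts. The purple and white tags of 1 sequence would keep their ratio to each other. Ratios of shares would still move through the library totals, and summing over all entries raised every log2 ratio by 0.16. Of the members, 5 had fewer than 10 tags over both libraries.

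Together the 11 members held 81 of the purple tags, or 2.58% (interval 2.05 to 3.20), and 52 of the white tags, or 2.86% (2.14 to 3.73). The log2 ratio of purple to white, taken on these shares after adding 0.5 to each count, was -0.15 (interval -0.67 to 0.38). The members as a sum did not differ beyond counting error. The value turned to 0.28 (-0.24 to 0.82) with the multipliers behind the authors' normalized values, which put the depth of purple at 1.28 times that of white instead of 1.73 times and raise every log2 ratio by 0.43. Ratios below are on the share of listed tags unless the authors' scaling is named. Without miR-1 the sum was 66 purple and 52 white tags (-0.45, interval -0.99 to 0.11, and -0.01 on the authors' scaling). Without miR-182 it was 51 purple and 27 white tags (0.12, interval -0.57 to 0.86, and 0.55 on the authors' scaling).

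All 11 members were listed in purple and 7 of them in white. The 4 members listed in purple and empty in white were oha-miR-1a-3p, hsa-miR-1-3p, hsa-miR-99b-5p and cgr-miR-29a-3p. Over all 170 sequences, 34 (20%) were listed in purple and empty in white, and 29 of these 34 had only 2 or 3 purple tags, as did 3 of the 4 members. At an equal share of the listed tags, the 3 purple tags of hsa-miR-1-3p would correspond to 1.74 white tags. The 2 purple tags of hsa-miR-99b-5p and of cgr-miR-29a-3p would correspond to 1.16 each. On the authors' scaling hsa-miR-1-3p came to 2.35 white tags, above the listing minimum of 2, and hsa-miR-99b-5p and cgr-miR-29a-3p to 1.56 each. Rounding matters here too, since the white cell of hsa-miR-183-5p, at 1.71 tags before rounding, was listed at 2. The 12 purple tags of oha-miR-1a-3p would correspond to 6.95 white tags, or 9.39 on the authors' scaling, and fewer than 2 were seen.

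**Figure D1:**
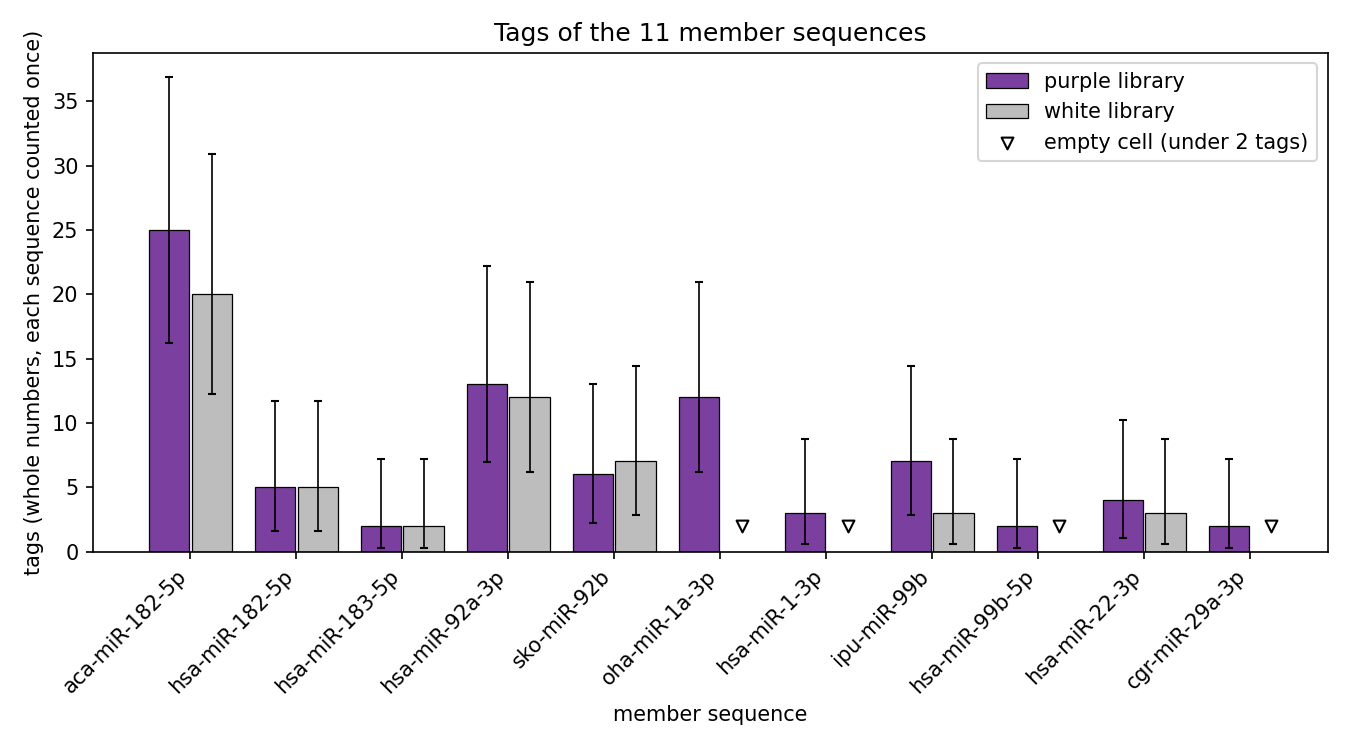
Tags (vertical axis) of the 11 member sequences (horizontal axis), with purple and grey bars for the purple and white libraries, exact 95% Poisson intervals as error bars, and open triangles at 2 tags for empty cells. The tallest bars are those of aca-miR-182-5p, at 25 purple and 20 white tags, and the only member with 10 or more tags in purple and an empty white cell is oha-miR-1a-3p, at 12.

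The muscle family miR-1 showed the widest gap between the libraries. It had 15 tags in purple, or 0.478% of the listed tags (interval 0.268 to 0.786), and both of its cells were empty in white. The tags were divided between oha-miR-1a-3p, the form ending in C, with 12 purple tags and an empty white cell, and hsa-miR-1-3p, the form ending in U that the owl limpet shares, with 3 purple tags and an empty white cell. Of the 34 sequences listed in purple alone, oha-miR-1a-3p had the most tags, and hsa-miR-3150b-3p came next with 6. With the white cell set at its limit of 2 tags, oha-miR-1a-3p had a log2 ratio of 1.53, and the interval of -0.37 to 4.999 included 0. On the authors' scaling the ratio was 1.97 and the interval, 0.06 to 5.43, lay above 0. For hsa-miR-1-3p the ratio at that limit was -0.30 (-3.33 to 3.38), and 0.13 on the authors' scaling. The family, with white at 4 tags for its 2 empty cells, stood at 0.997 (-0.53 to 3.17), and at 1.43 (-0.10 to 3.60) on the authors' scaling. These ratios and intervals rest on the entered white tags, and lower white values would raise them. With empty cells as 0 the ratio was 3.86 for oha-miR-1a-3p and 4.17 for the family, and no interval is given there. Neither miR-133, which is made together with miR-1 in vertebrate muscle, nor miR-206, a close relative of miR-1, was listed in either library. Within miR-1 the C-ending form held 80.0% of the purple tags (51.9 to 95.7). In the miR-92 pair, which differs by the same last base, the C-ending form held 31.6% in purple (12.6 to 56.6) and 36.8% in white (16.3 to 61.6).

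Among the 11 members, oha-miR-1a-3p was the only one at least 2-fold higher in purple, against 3 of all 170 sequences (1.76%) on the share of listed tags and 6 of 170 (3.53%) on the authors' scaling. None of the 11 was at least 2-fold lower in purple on either scale, against 16 of 170 (9.41%) on the share of listed tags and 4 of 170 (2.35%) on the authors' scaling. With empty cells entered at 2 tags, no member interval lay above 0 on the share of listed tags, where 4 of 170 did (2.35%). None lay below 0, where 7 of 170 did (4.12%). On the authors' scaling the 1 member interval above 0, that of oha-miR-1a-3p, stood against 8 of 170 (4.71%), and intervals below 0 numbered 0 of 11 and 0 of 170 (0%). With 11 members, 1 call is a description of that sequence and does not set the group apart from the rest. The median log2 ratio was -0.68 over the members and -0.42 over all 170 sequences, and -0.24 and 0.01 on the authors' scaling, with empty cells at 2 tags throughout.

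**Figure D2:**
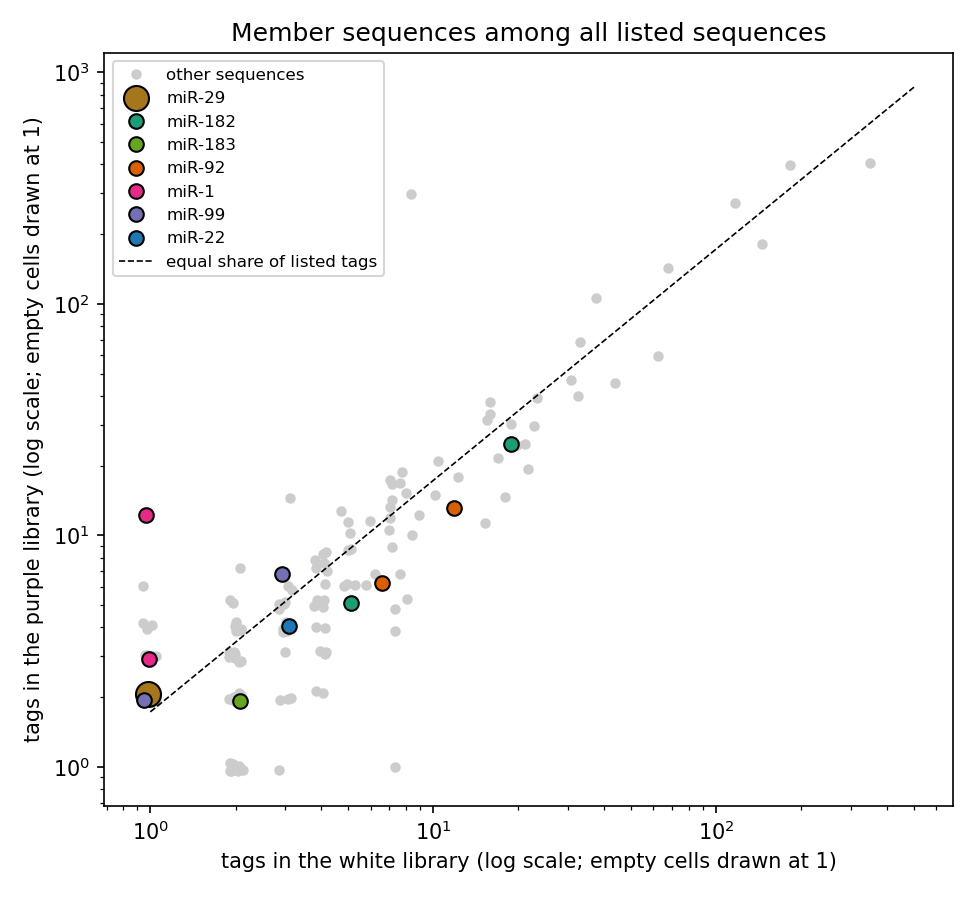
Tags in the purple library (vertical axis) against tags in the white library (horizontal axis), both on log scales, with 1 point per distinct sequence, coloured by family for the 11 members (miR-29 as a larger point under hsa-miR-99b-5p) and grey for the others; points are spread by up to 6% to separate ties, and empty cells are drawn at 1. The points of miR-22, miR-92, miR-182 and miR-183 lie below the dashed line of equal share, and oha-miR-1a-3p lies far above it at 12 purple tags and an empty white cell.

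The miR-182 family, known from vertebrate sensory cells, had the most tags of the 7 in both libraries. It had 30 tags in purple (0.955%, interval 0.645 to 1.36) and 25 in white (1.37%, interval 0.891 to 2.02). It ranked 15 of 83 families by purple tags and 13 by white tags. Its 22-nt form aca-miR-182-5p, for which no human entry is listed, had 25 tags in purple and 20 in white, and the 24-nt form hsa-miR-182-5p had 5 in each. The shorter form thus made up 83.3% of the family in purple (65.3 to 94.4) and 80.0% in white (59.3 to 93.2), and these intervals overlap over most of their range. The log2 ratio of the family was -0.53 (-1.34 to 0.30), and -0.10 (-0.91 to 0.73) on the authors' scaling. Its cluster neighbour hsa-miR-183-5p had 2 tags in each library, which is the listing minimum, with a ratio of -0.79 (-4.57 to 2.999), or -0.35 on the authors' scaling. miR-96, the third miRNA of that vertebrate cluster, was not listed in either library. Equal tags in both libraries give -0.79 on the share of listed tags by the difference in depth alone, and hsa-miR-182-5p stood at the same value for that reason.

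The miR-92 family had 19 tags in purple (0.605%, interval 0.365 to 0.943) and 19 in white (1.04%, interval 0.630 to 1.63). hsa-miR-92a-3p contributed 13 purple and 12 white tags, a ratio of -0.68 (-1.92 to 0.59, and -0.24 on the authors' scaling), and sko-miR-92b 6 purple and 7 white tags. The ratio of sko-miR-92b, -0.99 (-2.86 to 0.79), was the lowest of the 11 members and lay just inside the 2-fold limit of -1, and on the authors' scaling it was -0.56. The family stood at -0.79 (-1.78 to 0.21), and at -0.35 (-1.35 to 0.64) on the authors' scaling.

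The miR-92 seed AUUGCAC was the only member seed also found outside the 7 families. It was shared by 4 further listed sequences, which are shown because only the part outside the capitals tells them apart from miR-92.
hsa-miR-25-3p: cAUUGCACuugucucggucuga
hsa-miR-363-3p: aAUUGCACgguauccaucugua
aca-miR-363-3p: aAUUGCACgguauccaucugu
hsa-miR-32-5p: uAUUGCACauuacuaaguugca
Relative to hsa-miR-92a-3p, hsa-miR-25-3p had the same base at 18 of 22 positions, with the substitutions U1C, C14U, C18U and U22A, whereas hsa-miR-363-3p shared 10 and hsa-miR-32-5p shared 11 of the 22 positions.

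The relatives together had 37 purple and 33 white tags, and with the miR-92 pair the seed carried 56 purple and 52 white tags. hsa-miR-25-3p had 24 purple and 22 white tags (log2 ratio -0.66, interval -1.56 to 0.24, and -0.23 on the authors' scaling). The miR-363 family had 11 and 9 tags in purple and white (-0.51, interval -1.91 to 0.95, and -0.08 on the authors' scaling), and hsa-miR-32-5p had 2 in each library. All of these ratios fell between -0.50 and -0.79, beside -0.79 for the miR-92 family. Of the 6 other families of the vertebrate miR-17 to miR-92 clusters, 4 were listed, miR-17, miR-20, miR-93 and miR-106, with 33 purple and 32 white tags in all (-0.74, interval -1.49 to 0.01, and -0.31 on the authors' scaling). miR-106 had 11 purple and 13 white tags, and miR-93 had 11 purple and 10 white tags.

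The miR-99 family had 9 tags in purple (0.287%, interval 0.131 to 0.543) and 3 in white (0.165%, interval 0.0340 to 0.481). ipu-miR-99b, catalogued for 1 species, the channel catfish, had 7 purple and 3 white tags and a ratio of 0.31 (-1.70 to 3.02), or 0.745 on the authors' scaling. hsa-miR-99b-5p had 2 purple tags and an empty white cell. The family ratio was 0.65 (-1.20 to 3.32), and 1.09 (-0.77 to 3.75) on the authors' scaling, so a difference was not detectable at this depth. The empty white cell of hsa-miR-99b-5p added none to the 3 white tags of the family, and entering it at 2 tags would lower both ratios. miR-100 and miR-125, the neighbours of let-7 in many animals, were not listed in either library, while let-7 itself had 406 purple and 294 white tags.

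miR-22 and miR-29 were close to the listing minimum. hsa-miR-22-3p had 4 tags in purple and 3 in white, with a ratio of -0.42 (-2.94 to 2.40) that turned to 0.01 on the authors' scaling. cgr-miR-29a-3p, a 21-nt form with 4 entries from mammals and none of them human, had 2 tags in purple and an empty white cell, and with white at 2 tags its ratio was -0.79 (-4.57 to 2.999), or -0.35 on the authors' scaling. That negative ratio, like the one of hsa-miR-99b-5p, is set by the 2 tags entered for the empty white cell, since both were listed in purple only.

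**Figure D3:**
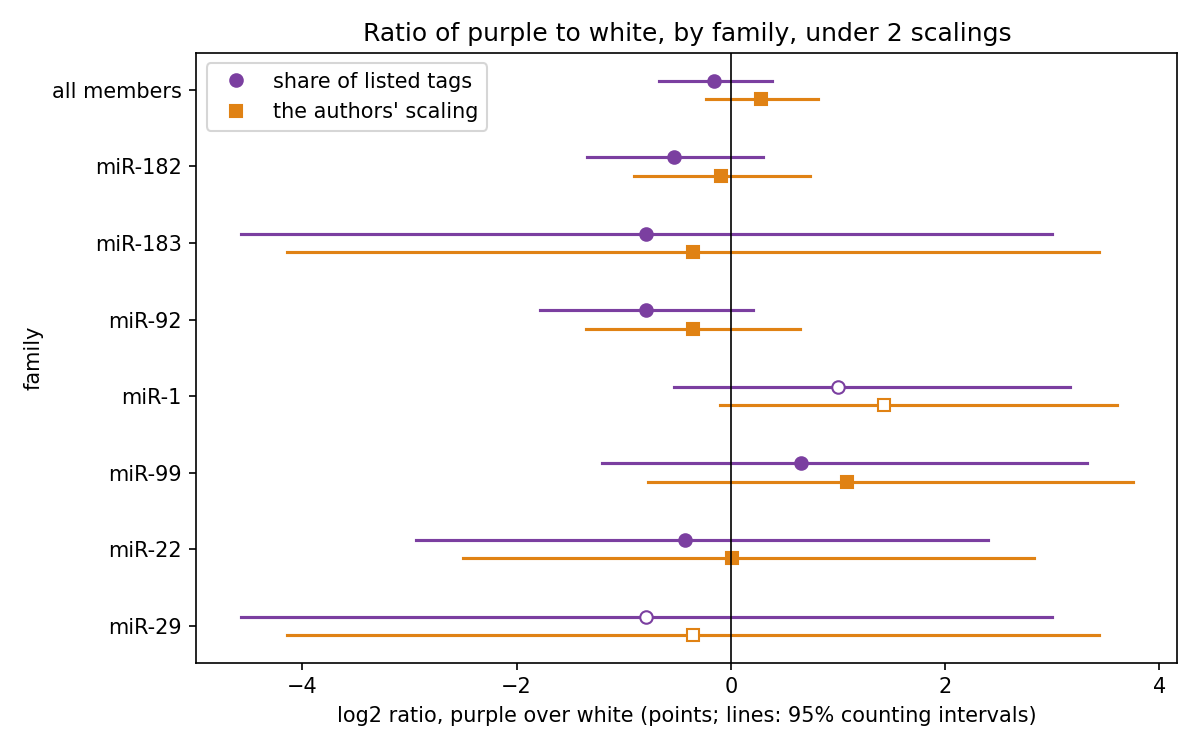
Log2 ratio of purple to white (horizontal axis) for the sum of the members and for each of the 7 families (vertical axis). Circles give the share of listed tags and squares the authors' scaling, with exact 95% counting intervals as lines. Open symbols mark miR-1 and miR-29, the families with no listed white cell, which were set at 2 tags per sequence. The intervals of all 7 families include 0 on both scales, for miR-1 and miR-29 with white at those entered tags. miR-1 and miR-99 have ratios above 0 on both, and for miR-99 the empty white cell of hsa-miR-99b-5p adds none.

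Within a library, most steps in the order of the families were smaller than the counting error. In purple the order was miR-182 with 30 tags, miR-92 with 19, miR-1 with 15, miR-99 with 9, miR-22 with 4, and miR-183 and miR-29 with 2 each. No neighbouring families in this order were told apart, since the interval for the share of the higher one in its pair always included 50.0%. In white the order was miR-182 with 25 tags, miR-92 with 19, miR-22 and miR-99 with 3 each, and miR-183 with 2, while miR-1 and miR-29 were empty. There the step from miR-92 to miR-22 exceeded counting error, with 86.4% of the pair's tags on miR-92 (65.1 to 97.1), and the other steps did not. These orders would change if each entry held only a part of the tags of its sequence.

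The shares of blood cell miRNAs are given beside these values, and their part in them was not tested. All 4 families taken as markers of vertebrate red blood cells (miR-451, miR-486, miR-144 and miR-16) were listed, and they held 19.4% of the purple tags (18.1 to 20.8) and 28.9% of the white tags (26.8 to 31.0). Their log2 ratio was -0.57 (-0.74 to -0.40), but -0.14 with an interval that included 0 (-0.31 to 0.03) on the authors' scaling. Of 6 families taken as markers of vertebrate white blood cells, 5 were listed, with miR-155 absent, and they held 4.14% of the purple tags (3.47 to 4.90) and 3.13% of the white tags (2.38 to 4.04). Their ratio was 0.40 with an interval that included 0 (-0.06 to 0.88), and 0.83 (0.38 to 1.31) on the authors' scaling. The muscle list was represented by miR-1 alone of 3 families, and the sensory list by miR-182 and miR-183 of 3, with 1.02% of the purple tags and 1.48% of the white tags. Of 31 families known across bilaterian animals, counted by family number, none was listed in either library, which at the listing minimum means fewer than 2 tags per sequence. Examples are miR-7, miR-9, miR-34, miR-124 and miR-184. The 31 include miR-96, miR-100, miR-125 and miR-133, given above as not listed, and miR-71 of the protostome list.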

How the data were processed

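Exosome RNA of the mantle was ligated to adaptors, copied, amplified, size selected and sequenced over 50 cycles, per the labels' protocols. Novoalign 3.02.12 and cutadapt 1.9.2 are the tools in the submitters' processing notes, and their settings and the miRNA catalogue are not given in the sources. The first deposited sheet holds raw tag counts per entry, per the file headers. They were treated as estimated counts that the authors rounded, with cells under 2 tags left empty. The second deposited sheet holds the authors' normalized tag counts, whose unit is unstated and which are recorded as a score. Within rounding they equal the tags times 5.50 in purple and 7.03 in white. Columns headed 2 and 1 were matched to the titles ending in these numbers.

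Entries of 1 sequence had identical values and were counted once, under the human name or else the first name. Empty cells entered single ratios at 2 tags and added none to sums, but a family empty in a library entered at 2 tags per sequence. Ratios carry 0.5 added per count and exact conditional binomial (Clopper-Pearson) intervals (scipy 1.17.1), tested on simulated data. The simulated counts were Poisson draws without a listing minimum, so intervals with an entered empty cell were not tested. Shares carry exact binomial intervals. A sequence was called at 2-fold. DESeq2 1.42.0 size factors and TMM from edgeR 4.0.16 were among the alternatives. Named by rule are all members, sequences that share a member's seed, and listed families of partner lists, while hsa-miR-3150b-3p was named after its value was seen. Members and lists were chosen with earlier results of these data known.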

Additional observations from a re-analysis of the deposited data

How the results depend on the processing

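With 1 library per type, depth and scaling limited every comparison, and no ratio of a family or of a member sequence left its counting interval under the other scalings or added counts. With empty cells as 0, miR-1 moved to 4.17, and the direction turned for the miR-29 family (-0.79 as reported, 1.53), hsa-miR-99b-5p (-0.79, 1.53) and hsa-miR-1-3p (-0.30, 2.02), whose reported negative ratios come from the 2 tags entered for empty cells. In addition, with each entry counted as an item the members' share came to 4.18% in purple and 4.96% in white. Across the 5 other scalings the ratio of the summed members, -0.15 as reported, ran from -0.01 (total without miR-1246) to 0.28 (the authors' multipliers), through 0.01 (sum over all entries), 0.06 (DESeq2 size factors) and 0.12 (TMM). The number of members past the fold and higher in purple, 1 as reported, came to 0 at 4-fold, 0 with 5 added to each count and 4 with empty cells as 0. The number lower in purple, 0 as reported, came to 1, sko-miR-92b, with 0 added, and to 6 at 1.5-fold, of which 2 were listed in purple alone and count as lower only through the 2 tags entered for white. At a minimum of 5 tags, 6 members were listed in purple and 4 in white, and at 10 tags 3 and 2. With unrounded tags, an alternative chosen after seeing the data, every member ratio stayed within its interval, but 2 members passed the 2-fold limit as lower in purple, sko-miR-92b at -1.11 and hsa-miR-99b-5p, empty in white, at -1.01. No paired analysis was possible because each type has 1 library, and no replicate could be left out for the same reason.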

Other observations

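Dividing the normalized values by the multiplier of each library gave the members' tags before rounding, within 0.0909 tags in purple and 0.0711 tags in white from the rounding of the normalized values. Several were not whole. ipu-miR-99b, which has 1 entry, came to 7.27 tags in purple and 3.27 in white, hsa-miR-182-5p to 4.55 and 4.55, and hsa-miR-22-3p to 4.36 and 2.56. oha-miR-1a-3p came to 12.002 tags in purple. No source used here describes how fractional tags arose.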
